A study of Mus musculus with 16 samples.

Results

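The 30 genes described here carry out fatty acid oxidation and ketone body metabolism or are targets and partners of the nuclear receptor PPARA. They were taken by gene name from a table of 54532 genes, and all 30 were found in it. RNA was sequenced from enteroids, organoids of pure epithelium that grow out of intestinal crypts, here of mouse jejunum, after differentiation, with 4 cultures in each of 4 groups. MYO5BΔIEC enteroids had the genotype Vil-CreERT2;Myo5b-flox/flox and received vehicle, PBS, in differentiation medium. MYO5B(G519R) enteroids had the genotype Vil-CreERT2;Myo5b-flox/G519R, so that the mutant allele is the only one left once the floxed allele is deleted. A further set of MYO5BΔIEC enteroids received Compound-1, a synthetic agonist that prefers the lysophosphatidic acid receptor LPAR5, at 100 nM for 2 days of differentiation. The labels name 4-OH-tamoxifen (1 µM, given 24 h before the medium was changed) for the MYO5B-deficient cultures only, and the genotype of the control cultures is labelled only as control. By the study's methods the mice were adult, and the controls were Vil1-CreERT2;Myo5b flox/flox cultures given ethanol in place of 4-OH-tamoxifen, although a legend names them healthy littermates. An effect of the drug or of active Cre recombinase cannot be told apart from that of MYO5B loss in any comparison with control. The villin promoter restricts Cre to epithelial cells, and the cultures lack the other tissue of the gut wall.

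Long-chain fatty acids enter mitochondria through the carnitine shuttle, in which CPT1 on the outer membrane controls the rate. Inside, each round of β-oxidation runs through dehydrogenation, hydration, a further dehydrogenation and thiolysis, and the electrons of the first step pass through electron transfer flavoprotein to the respiratory chain. Peroxisomes shorten very long chains by a parallel route. PPARA, activated by fatty acids and assisted by the coactivator PGC-1α, induces many genes of these routes, and in the intestine it does so mainly in enterocytes.

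PPARA binds DNA with RXR at a direct repeat spaced by 1 base, AGGTCANAGGTCA, in which N is any base. This motif was searched on both strands, with up to 2 mismatches in its 12 fixed bases, in RefSeq promoter windows of 300 bases (250 before to 50 after the gene's start, GRCm38.p6). Windows were found for 26 of the 30 genes, and Acaa2, Decr1, Acat1 and Cyp4a10 had none. The motif occurred for 3 of the 26 genes (11.5%), against 4.4% of 27018 genes with a window. The shorter element TCAAGGTCA, bound by estrogen-related receptors, was found without mismatch for 0 of the 26 genes and for 0.466% of all genes. The 3 stretches with the PPARA motif are shown because they are the only ones found in the windows of the 26 genes searched. Matched bases are in capitals, and the gene's own strand is read 5′ to 3′.
Slc25a20, chr9:108662122-108662164, plus strand, motif at position 6 from the start: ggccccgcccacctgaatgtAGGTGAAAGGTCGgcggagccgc
Echs1, chr7:140116472-140116524, minus strand, motif at position -83: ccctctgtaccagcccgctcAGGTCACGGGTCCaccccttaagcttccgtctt
Etfa, chr9:55512288-55512340, minus strand, motif at position -77 and on the opposite strand: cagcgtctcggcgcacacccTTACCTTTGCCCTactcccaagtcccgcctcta
A match is a string of letters and was not measured as a binding site. Of these genes, Etfa was lower than control in every comparison with it, Echs1 was lower only in the Compound-1-treated comparison by the test used, and Slc25a20 passed the test in none.

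Between 27804968 and 40101729 reads were counted per culture, and 3 counts, the limit that a count of 0 leaves for counting error alone, correspond to 0.0733 to 0.106 CPM, which are counts scaled to the size of each library. Control cultures had 183 ± 27.9 CPM (SD, n = 4) of the targeted gene, Myo5b, beside 129 ± 29.5 for MYO5BΔIEC, 154 ± 16.3 for MYO5B(G519R) and 111 ± 26.1 for treated enteroids. Gene counts do not resolve the deleted exons. In the edgeR test described below, at an adjusted p under 0.05, Myo5b was lower than control only in treated enteroids (log2 fold change -0.77, edgeR adjusted p = 0.015). MYO5BΔIEC (-0.55, edgeR adjusted p = 0.0503) and MYO5B(G519R) (-0.33, edgeR adjusted p = 0.109) did not pass, and both overlapped with control. All 10 enterocyte markers were detected in the cultures, and the summed level of 5 fibroblast markers did not exceed 0.941 CPM in any. Control culture 1 stood apart, with a summed enterocyte marker level of 3781 CPM against 9254 to 12406 CPM in the other controls. Marker by marker, 8 of the 10 were higher and 2 lower than control in MYO5BΔIEC, and 3 higher ones passed the edgeR test. With the mutation 6 were higher and 4 lower, of which 2 and 1 passed. Treated cultures also had 6 higher and 4 lower, of which 3 and 1 passed. The 4 stem cell markers summed to 2131 to 5881 CPM in control, against 726 to 1836, 1046 to 2393 and 403 to 1580 CPM for MYO5BΔIEC, MYO5B(G519R) and treated cultures. Taken singly, 2 of these markers were higher and 2 lower than control in MYO5BΔIEC, and likewise in MYO5B(G519R). In treated cultures all 4 were lower, and in each of the 3 comparisons 1 marker, a lower one, passed the same test. Goblet cell markers (4 genes) summed to 1239 to 1656 CPM in control, below the 1749 to 4859 CPM of every MYO5B-deficient culture. The sum did not hold for each goblet marker, since every comparison with control had 2 of them higher and 2 lower. With the mutation, 1 passed the edgeR test as higher and 2 as lower. The deletion gave 1 each way, whether or not Compound-1 was added. Proliferation markers (6 genes) summed to 1495 to 1895 CPM in control, above MYO5BΔIEC (1054 to 1375 CPM) and treated cultures (716 to 1398 CPM) and overlapping with MYO5B(G519R) (1305 to 1669 CPM). Paneth cell markers (5 genes) summed to 6016 to 7046 CPM in control cultures 2 to 4, to 3001 CPM in control culture 1 and to 2809 to 4262 CPM in the MYO5B-deficient cultures. Mitochondrially encoded genes took 6.41 to 10.4% of control counts and 3.79 to 6.63% of the others. The part of these differences in the results was not tested, and in bulk RNA fewer cells of a type and less RNA per cell cannot be told apart.

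In MYO5BΔIEC enteroids, 2 of the 30 genes were higher and 5 lower than in control at an adjusted p under 0.05 (edgeR's quasi-likelihood test with Benjamini-Hochberg adjustment over 17951 genes). Over all genes tested, 13.5% were higher and 13.8% lower. In MYO5B(G519R) enteroids, 2 were higher and 6 lower, where 13.1% of all genes were higher and 13.7% lower. Read against these shares, neither the higher nor the lower count stood out. The median log2 fold change over the 30 genes was -0.32 in MYO5BΔIEC and -0.39 in MYO5B(G519R), beside -0.01 and -0.05 over all genes. The same 2 genes, Cpt1a and Acads, were higher in both, and the same 5, Hadhb, Eci1, Decr1, Etfa and Acat1, were lower in both. The comparisons share their control cultures. The groups did not overlap for 7 of the 30 genes in MYO5BΔIEC and 7 in MYO5B(G519R), where 26.5% and 27.1% of all genes did not.

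**Figure D1:**
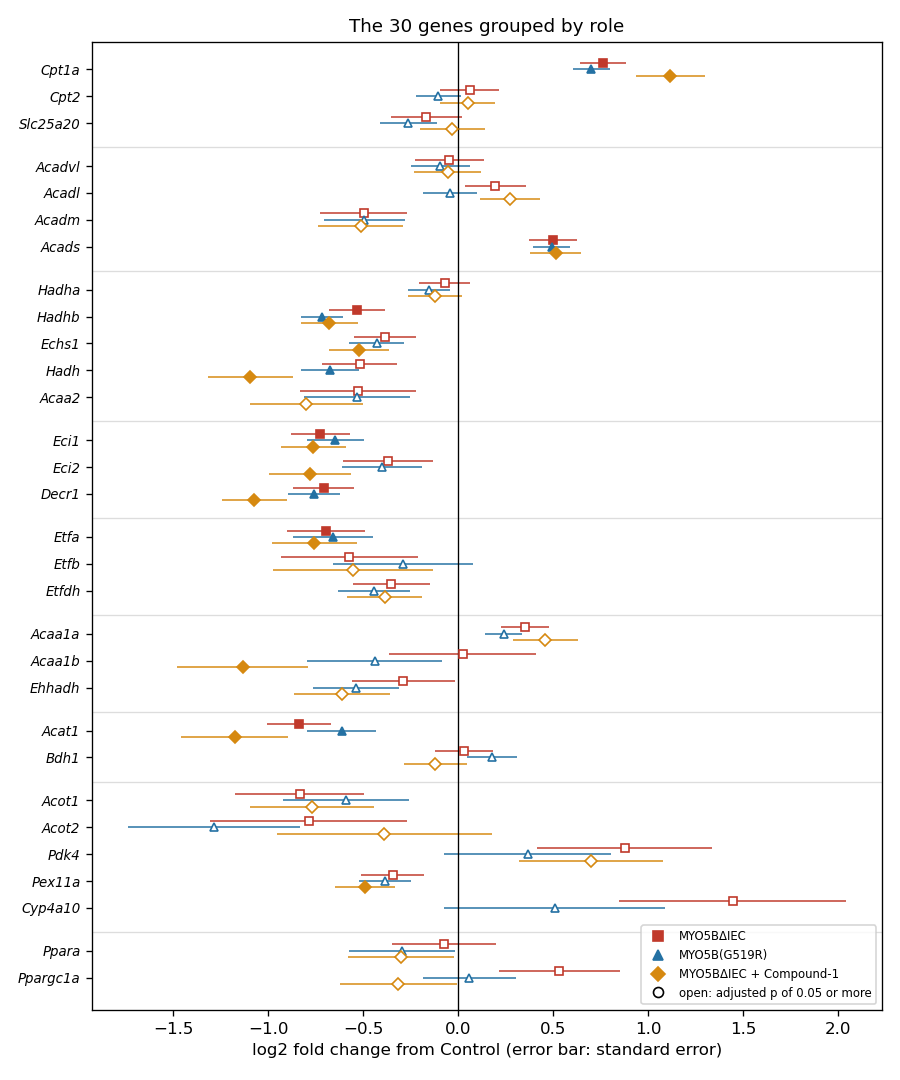
Log2 fold change from control (horizontal axis) for each of the 30 genes, grouped by role from the carnitine shuttle at the top to the regulators at the bottom; squares are MYO5BΔIEC, triangles MYO5B(G519R) and diamonds Compound-1-treated MYO5BΔIEC enteroids (4 cultures a group), bars are standard errors, and filled symbols have an edgeR adjusted p under 0.05. Cpt1a and Acads lie to the right in all 3 comparisons, and Hadhb, Eci1, Decr1, Etfa and Acat1 lie to the left; Cyp4a10 was not tested in treated enteroids against control.

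The count of lower genes depended on control culture 1. Without it, 3 of the 30 genes were higher and 14 lower in MYO5BΔIEC, where 21.2% of all genes were higher and 20.8% lower. In MYO5B(G519R), 3 were higher and 18 lower, where 24% of all genes were higher and 22.1% lower. On the lower side these are larger shares than over all genes, a description with no test. The culture left out was the lowest control for several of these genes. Leaving it out raises their control level, so the larger shares are not independent support. The genes that joined the lower side included Acadm (log2 fold change -0.70 with the deletion and -0.67 with the mutation), Acaa2 (-0.78 and -0.75), Etfdh (-0.53 and -0.59) and Acot1 (-1.11 and -0.84). Acadm is the medium-chain acyl-CoA dehydrogenase, Acaa2 a mitochondrial thiolase, Etfdh the enzyme that passes electrons from the flavoprotein to ubiquinone, and Acot1 a cytosolic acyl-CoA thioesterase. In control, Acadm was at 71.3 CPM in culture 1 and at 148, 140 and 150 CPM in the other cultures. Acaa2 was at 105 CPM in culture 1 and at 286, 303 and 271 CPM in the others. Control culture 1 was thus low for these genes, as it was for the summed enterocyte markers.

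The levels of the genes were compared with each other in FPKM, for which the authors divided counts by gene length and library size. In control enteroids, Acaa2 had the highest mean (160 ± 61.0 FPKM; SD, n = 4), followed by Etfa (125 ± 34.0), Hadh (95.6 ± 16.4), Acadl (72.9 ± 11.3) and Eci1 (60.3 ± 9.71). Ppara was at 5.62 ± 1.94 FPKM and Ppargc1a at 2.57 ± 0.626. Pdk4 (0.335 ± 0.157 FPKM) and Cyp4a10 (0.135 ± 0.0345) were lowest. Of the 29 pairs of neighbours in this order, 27 overlapped in their control cultures, and only the last 3 genes were separated from each other. The order of the leading genes depended on the length used. The file gives Hadh 4977 bases and Echs1 8286, where their longest coding transcripts have 1789 and 1557. By transcript length Hadh led (264 ± 45.3 CPM per kilobase), followed by Etfa (163 ± 44.5), Acaa2 (159 ± 60.5) and Echs1 (128 ± 20.2), an alternative added after the values were seen. Acadl, the long-chain acyl-CoA dehydrogenase, kept a mean of 72.4 to 89.3 FPKM in the MYO5B-deficient groups.

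Cpt1a encodes the CPT1 form of liver and intestine (ENSMUSG00000024900, chromosome 19, 3323301 to 3385732, GRCm38). It was at 60.9, 64.9, 67.0 and 60.1 CPM in the control cultures. It was at 123, 103, 115 and 105 CPM in MYO5BΔIEC and at 103, 109, 118 and 106 CPM in MYO5B(G519R). Every MYO5B-deficient culture was above every control culture. The log2 fold change was 0.76 (standard error 0.12, edgeR adjusted p = 0.0024) in MYO5BΔIEC and 0.70 (standard error 0.099, edgeR adjusted p = 0.0022) in MYO5B(G519R). The call was kept in every alternative setting and without any single culture. The other genes of the shuttle did not pass the test. Means of Cpt2, on the inner membrane, were 95.7 CPM for control, 103 for MYO5BΔIEC and 94.2 for MYO5B(G519R), and those of Slc25a20, the carnitine-acylcarnitine carrier, were 50.5, 46.6 and 44.7 CPM.

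Because both enzymes act in the same shuttle, the ratio of Cpt1a to Cpt2 counts was formed within each culture, which needs no scaling between libraries. It was 0.595 to 0.764 in control, 0.899 to 1.26 for MYO5BΔIEC, 1.09 to 1.22 for MYO5B(G519R) and 1.03 to 1.80 for treated cultures. The mean log2 ratio differed from control by 0.70, 0.80 and 1.03, with no overlap of the groups. A 2-sided exact permutation test gave p = 0.0286 for each, which is the smallest that 4 against 4 cultures allow. Adjusted over the 12 tests of ratios made, p was 0.0571. The ratios were chosen after the values were seen, so these p-values add no support beyond the ratios themselves.

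Of the 4 acyl-CoA dehydrogenases, which differ in the chain length they accept, only the short-chain enzyme passed the test. Acads (ENSMUSG00000029545, chromosome 5, 115110299 to 115119346) was at 50.4, 49.2, 55.9 and 54.3 CPM in control. It was at 80.9, 77.8, 82.2 and 66.5 CPM in MYO5BΔIEC and at 76.4, 80.9, 75.0 and 80.4 CPM in MYO5B(G519R). The groups did not overlap with control, and Acads had a log2 fold change of 0.50 (standard error 0.13, edgeR adjusted p = 0.015) and 0.49 (standard error 0.095, edgeR adjusted p = 0.0061). In MYO5BΔIEC the call was lost without control culture 2 (edgeR adjusted p = 0.052). Acadvl, the very long-chain enzyme, and Acadl had log2 fold changes between -0.09 and 0.20 with no call. With the dependence on gene length taken out, Acadl had 0.45 in MYO5BΔIEC, a call (edgeR adjusted p = 0.033), and 0.17 in MYO5B(G519R), with none (0.372), and in treated enteroids it went from 0.27 with no call to 0.51 with one (edgeR adjusted p = 0.023). Acadm had -0.50 and -0.49, also with no call (edgeR adjusted p = 0.125 and 0.116).

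**Figure D2:**
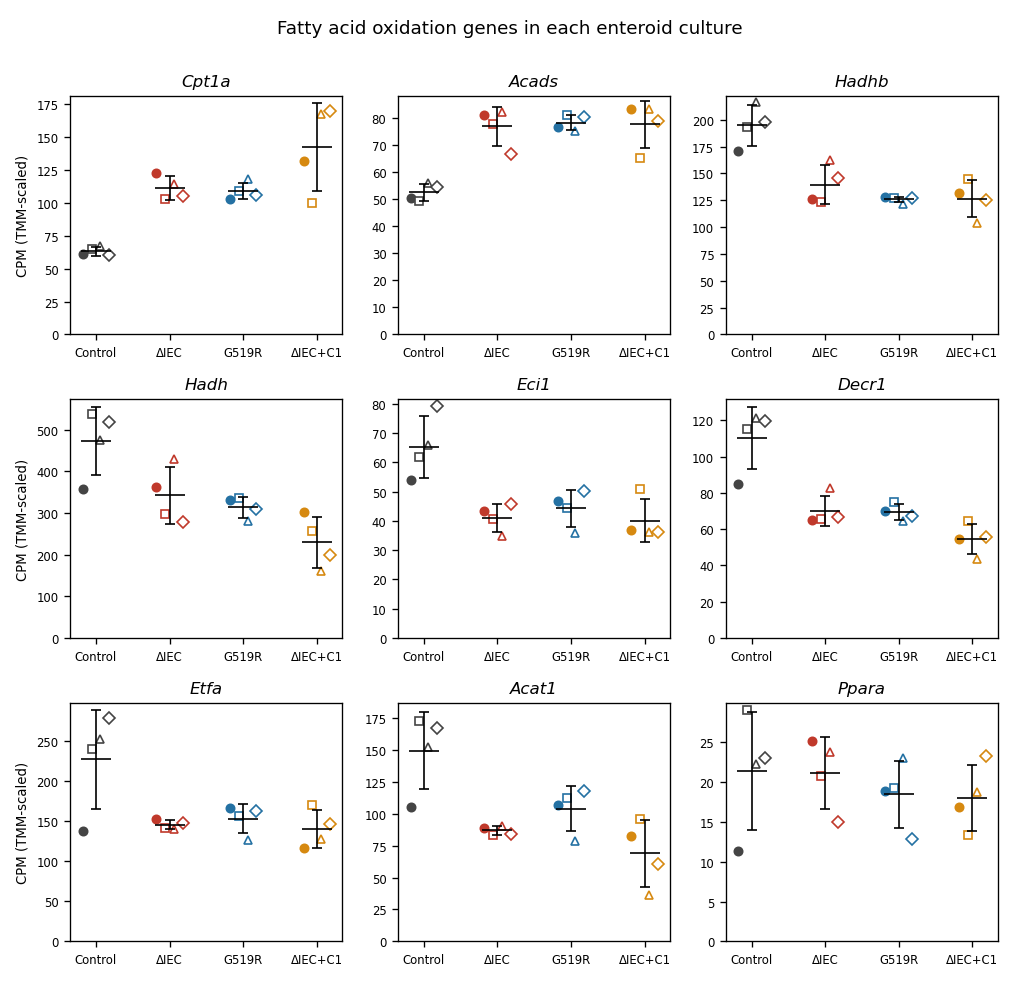
Read counts scaled to library size (CPM, vertical axis, from 0) of 9 genes in each culture of control, MYO5BΔIEC (ΔIEC), MYO5B(G519R) (G519R) and Compound-1-treated MYO5BΔIEC enteroids (ΔIEC+C1); filled circles are culture 1, squares culture 2, triangles culture 3 and diamonds culture 4, and bars give the mean and SD (n = 4). Cpt1a and Acads are above control in every MYO5B-deficient culture, Hadhb, Eci1 and Decr1 are below it, and Ppara overlaps between all groups.

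The next 3 steps of the long-chain cycle are joined in the mitochondrial trifunctional protein, whose α-subunit is encoded by Hadha and whose β-subunit, the thiolase, by Hadhb. The genes lie head to head on chromosome 5, Hadha at 30118304 to 30155162 on the minus strand and Hadhb at 30155248 to 30184593 on the plus strand, 86 bases apart in the file's annotation. Hadha was at 295 to 355 CPM in control, 294 to 337 CPM in MYO5BΔIEC and 297 to 313 CPM in MYO5B(G519R), with no call. Hadhb was at 171, 194, 217 and 198 CPM in control. It was at 126, 123, 162 and 146 CPM in MYO5BΔIEC and at 128, 127, 122 and 127 CPM in MYO5B(G519R). No MYO5B-deficient culture reached the lowest control for Hadhb. Its log2 fold change was -0.53 (standard error 0.15, edgeR adjusted p = 0.021) in MYO5BΔIEC and -0.72 (standard error 0.11, edgeR adjusted p = 0.0027) in MYO5B(G519R). In MYO5BΔIEC the call was kept without 3 of the 8 cultures in turn and lost without MYO5BΔIEC culture 1 or 2 or control culture 2, 3 or 4, with edgeR adjusted p values of up to 0.0763. In MYO5B(G519R) it was kept without each.

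The ratio of Hadha to Hadhb counts was 1.60 to 1.73 in control, 2.08 to 2.57 for MYO5BΔIEC, 2.34 to 2.51 for MYO5B(G519R) and 2.11 to 2.69 for treated cultures. The mean log2 ratio was higher than control by 0.47, 0.56 and 0.56, and each gave the same exact permutation p = 0.0286 (2-sided, adjusted p = 0.0571 over the 12 tests). Groups of 4 cultures without overlap can only give this smallest p. This pair too was chosen after the values were seen, so the test adds no support beyond the ratios themselves. For the subunits of electron transfer flavoprotein, the ratio of Etfa to Etfb had log2 differences of -0.23, -0.48 and -0.24 from control (exact permutation p = 0.543, 0.143 and 0.486), and a difference of the size seen for Hadha and Hadhb was not detectable. Hadhb counts are uncertain in part, since 52.8% of the windows of 100 bases in its longest transcript also occur in other genes, chiefly the processed pseudogene Gm13910. Gm13910 was at 55.7 to 68.4 CPM in control, at 35.2 to 49.0 CPM in MYO5BΔIEC and at 35.9 to 38.5 CPM in MYO5B(G519R). With the counts of Gm13910 and a smaller copy, Gm9108, added to Hadhb, its log2 fold changes were -0.56 and -0.74. The ratio to Hadha was then 1.21 to 1.28 in control and 1.58 to 1.98 and 1.81 to 1.92 in the MYO5B-deficient groups.

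**Figure D3:**
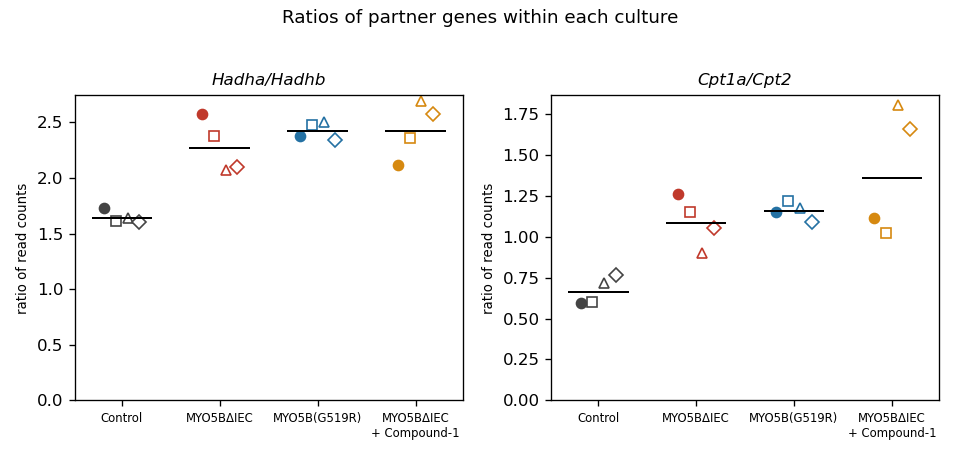
Ratio of read counts (vertical axis, from 0) of Hadha to Hadhb and of Cpt1a to Cpt2 within each culture, with a bar at the geometric mean (n = 4) and symbols by culture number as in the plot of counts. Control cultures lie at 1.60 to 1.73 for Hadha/Hadhb and 0.595 to 0.764 for Cpt1a/Cpt2, below all MYO5B-deficient cultures.

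Shorter chains are hydrated by ECHS1 and dehydrogenated by HADH. Hadh (ENSMUSG00000027984, chromosome 3, 131233419 to 131272101) was at 357, 538, 476 and 518 CPM in control. It was at 361, 299, 429 and 279 CPM in MYO5BΔIEC and at 331, 336, 281 and 308 CPM in MYO5B(G519R). All MYO5B(G519R) cultures lay below control, while MYO5BΔIEC overlapped with control culture 1. The log2 fold change was -0.52 (standard error 0.20, edgeR adjusted p = 0.072) in MYO5BΔIEC and -0.67 (standard error 0.15, edgeR adjusted p = 0.012) in MYO5B(G519R). In MYO5BΔIEC, Hadh was called lower in 2 of 11 alternative settings, DESeq2 and all 4 groups in 1 fit. It was also called there without control culture 1 or MYO5BΔIEC culture 3. The direct comparison of MYO5B(G519R) with MYO5BΔIEC gave -0.15 (standard error 0.15, edgeR adjusted p = 0.847). Echs1 had -0.38 and -0.43, and Acaa2 -0.53 and -0.53, without a call. With the length dependence taken out, Echs1 had -0.59 and -0.60 and was called in both (edgeR adjusted p = 0.039 and 0.030), while Acaa2 had -0.09 and -0.17. Acaa2 lies 7704 bases beyond the 3′ end of Myo5b on chromosome 18.

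Unsaturated fatty acids need the auxiliary enzymes enoyl-CoA isomerase and 2,4-dienoyl-CoA reductase. Decr1, the mitochondrial reductase (ENSMUSG00000028223, chromosome 4, 15917240 to 15945507), was at 84.8, 115, 121 and 120 CPM in control. It was at 65.1, 65.8, 82.5 and 66.9 CPM in MYO5BΔIEC and at 70.2, 74.9, 64.7 and 67.2 CPM in MYO5B(G519R). All MYO5B-deficient cultures were below the lowest control, and the log2 fold change was -0.71 (standard error 0.16, edgeR adjusted p = 0.0093) and -0.76 (standard error 0.14, edgeR adjusted p = 0.0046), and both calls were kept in every alternative and without each culture. Eci1, an isomerase (ENSMUSG00000024132, chromosome 17, 24426683 to 24439316), was at 54.1, 61.7, 66.1 and 79.3 CPM in control. It was at 43.2, 40.7, 34.7 and 45.6 CPM in MYO5BΔIEC and at 46.8, 44.3, 35.7 and 50.4 CPM in MYO5B(G519R).

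Eci1 also showed no overlap with control. Its log2 fold change was -0.72 (standard error 0.15, edgeR adjusted p = 0.0072) and -0.65 (standard error 0.15, edgeR adjusted p = 0.012). Eci1 has the shortest annotated length of the set, 1091 bases. When each culture's dependence of counts on gene length was taken out, its log2 fold change was -0.18 and -0.20 and the calls were lost (edgeR adjusted p = 0.297 and 0.172). Decr1 had -0.70 and -0.77 in that setting. Eci2, the second isomerase, had a log2 fold change of -0.37 and -0.40 with no call.

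Etfa, the α-subunit of electron transfer flavoprotein (ENSMUSG00000032314, chromosome 9, 55454508 to 55512243), was at 137, 240, 252 and 278 CPM in control. It was at 153, 141, 141 and 148 CPM in MYO5BΔIEC and at 166, 156, 126 and 163 CPM in MYO5B(G519R). The MYO5B-deficient cultures were all below control cultures 2 to 4, while control culture 1 was below every MYO5BΔIEC culture and within the MYO5B(G519R) range. The log2 fold change was -0.70 (standard error 0.21, edgeR adjusted p = 0.029) and -0.66 (standard error 0.21, edgeR adjusted p = 0.042). This call was the least stable. Without control culture 1 it was stronger (-0.88 and -0.81), and without any other single culture it was lost in both comparisons, with edgeR adjusted p values of up to 0.0909 and 0.116. It was also lost with the replicate number as a block, in limma on FPKM and with the length trend removed (-0.38 and -0.41). In treated enteroids it was kept without 2 of the 8 cultures, control culture 1 and treated culture 2, and lost without each of the others. Etfb had -0.57 and -0.29 and Etfdh -0.35 and -0.44, with no call, and with the length trend removed Etfb had 0.01 and 0.19. Etfb shares 65.2% of its windows of 100 bases with the overlapping gene Gm45233, so its level is uncertain.

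In ketone body metabolism, Acat1, the mitochondrial acetoacetyl-CoA thiolase (ENSMUSG00000032047, chromosome 9, 53580522 to 53610382), was at 106, 172, 152 and 168 CPM in control. It was at 89.2, 83.6, 90.7 and 84.5 CPM in MYO5BΔIEC and at 107, 113, 78.5 and 118 CPM in MYO5B(G519R). Every MYO5BΔIEC culture was below control, and MYO5B(G519R) overlapped with control culture 1. For Acat1 the log2 fold change was -0.84 (standard error 0.17, edgeR adjusted p = 0.0056) in MYO5BΔIEC, a call kept in every alternative and without each culture. In MYO5B(G519R) it was -0.61 (standard error 0.18, edgeR adjusted p = 0.033). That call was kept without control culture 1 or MYO5B(G519R) culture 4, and lost without any of the other 6 cultures (edgeR adjusted p up to 0.0898), with all groups in 1 fit and in limma on FPKM. Bdh1, the mitochondrial 3-hydroxybutyrate dehydrogenase, did not pass, with 162 to 228 CPM in control, 178 to 228 CPM in MYO5BΔIEC and 217 to 258 CPM in MYO5B(G519R).

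None of the 3 peroxisomal genes passed the edgeR test in either comparison, and 1 and 2 of them had an unadjusted p under 0.05. Acaa1a, a peroxisomal thiolase, lay above control in every MYO5BΔIEC and MYO5B(G519R) culture (88.7 to 103 CPM in control, 114 to 145 and 118 to 123 CPM in the others). Its log2 fold change was 0.35 (standard error 0.13, edgeR adjusted p = 0.0598) and 0.24 (standard error 0.098, edgeR adjusted p = 0.0967). DESeq2 called Acaa1a higher in both (DESeq2 adjusted p = 0.022 and 0.016), as did limma on FPKM. Ehhadh, the peroxisomal bifunctional enzyme, had -0.29 and -0.54, and Acaa1b, the second thiolase, 0.02 and -0.44. Acaa1a and Acaa1b share 21.6% and 30.5% of their windows with other genes, chiefly each other.

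The regulators did not pass the test, and neither had an unadjusted p under 0.05. Ppara (ENSMUSG00000022383, chromosome 15, 85734983 to 85802819) was at 11.3, 29.1, 22.2 and 23.0 CPM in control. It was at 25.2, 20.8, 23.8 and 15.0 CPM in MYO5BΔIEC and at 18.9, 19.3, 23.0 and 12.8 CPM in MYO5B(G519R). The groups overlapped throughout, and the log2 fold change was -0.07 (standard error 0.27, edgeR adjusted p = 0.871) and -0.30 (standard error 0.28, edgeR adjusted p = 0.467). Ppargc1a, which encodes PGC-1α (ENSMUSG00000029167, chromosome 5, 51454250 to 51567726), was at 22.9, 13.7, 15.3 and 15.4 CPM in control. It was at 21.4, 23.3, 42.6 and 13.0 CPM in MYO5BΔIEC and at 21.2, 20.4, 21.8 and 10.6 CPM in MYO5B(G519R). Here too the groups overlapped, with a log2 fold change of 0.53 (standard error 0.32, edgeR adjusted p = 0.240) and 0.06 (standard error 0.24, edgeR adjusted p = 0.889). In MYO5BΔIEC the standard error of Ppargc1a was so large that a change of the size seen for Cpt1a was not detectable.

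The 5 genes held as PPARA targets also gave 0 calls by edgeR in either comparison, with 2 of them at an unadjusted p under 0.05 in each. Acot1, an acyl-CoA thioesterase, had a log2 fold change of -0.83 (MYO5BΔIEC) and -0.59 (MYO5B(G519R)), and its mitochondrial relative Acot2 had -0.79 and -1.28, with standard errors of 0.33 to 0.52. Some alternatives gave a call on the lower side. Acot1 was called in MYO5BΔIEC with all 4 groups in 1 fit (edgeR adjusted p = 0.036). Acot2 was called in MYO5B(G519R) by DESeq2, with no filter and without control culture 1, 2 or 4. Control culture 1 lay far from the others for both. It had 23.9 CPM of Acot1 against 66.4 to 79.2 in the other controls, and 45.5 CPM of Acot2 against 9.35 to 14.2. Pdk4, the kinase that restrains pyruvate dehydrogenase, was at 0.617 to 1.67 CPM in control and 1.18 to 4.01 CPM in MYO5BΔIEC. Pex11a, a factor of peroxisome division, had -0.34 and -0.38. Cyp4a10, a fatty acid ω-hydroxylase, had 6 to 11 reads per control culture and 11 to 48 per MYO5BΔIEC culture (log2 fold change 1.44, standard error 0.60, edgeR adjusted p = 0.0925). It passed the filter of 10 reads in 2 libraries through the MYO5BΔIEC cultures, where it is higher.

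**Figure D4:**
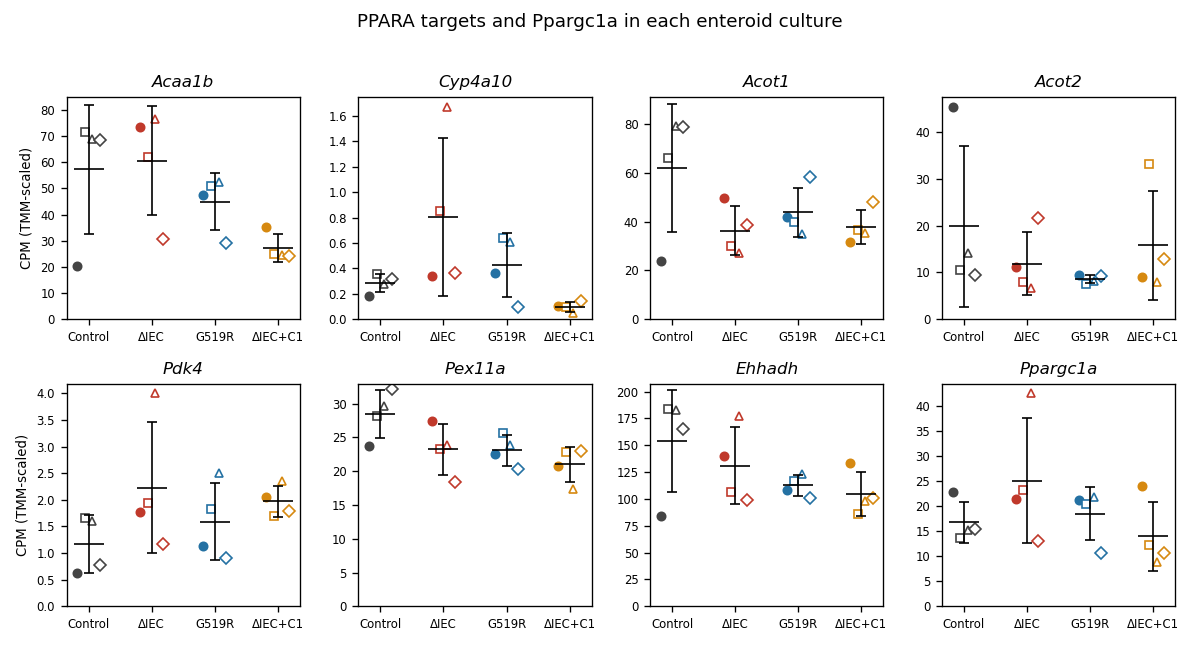
Read counts scaled to library size (CPM, vertical axis, from 0) of PPARA targets and Ppargc1a in each culture, with groups, symbols, mean and SD as in the plot of the oxidation genes. Acaa1b, Cyp4a10, Pex11a, Ehhadh and Ppargc1a have their lowest group mean in Compound-1-treated cultures. Control culture 1 stands apart for Acaa1b, Acot1, Acot2, Ehhadh and Ppargc1a.

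Compound-1-treated and vehicle-treated MYO5BΔIEC enteroids were compared to ask whether LPAR5 activation moves these genes. No gene of the set passed the edgeR test, and 0% of the 18037 genes tested did, while 1355 of them had an unadjusted p under 0.05 and DESeq2 called 91. At an unadjusted p under 0.05, 6 of the 30 genes were lower and 0 higher, where 4.1% of all genes were lower. DESeq2 called 2 of the 30 genes lower, where it called 0.253% of all genes lower, and these were Acaa1b and Cyp4a10. Acaa1b was at 73.5, 62.1, 76.6 and 30.6 CPM with vehicle and at 35.2, 24.8, 24.6 and 24.2 CPM with Compound-1, so that the lowest vehicle culture lay within the treated range. The log2 fold change was -1.18 (standard error 0.26, edgeR adjusted p = 0.532; DESeq2 adjusted p = 0.019). Cyp4a10 had 11, 28, 48 and 12 reads with vehicle and 3, 3, 2 and 5 with Compound-1, without overlap. It passed the filter of 10 reads in 2 libraries through the vehicle cultures alone. Cyp4a10 could thus enter the counts above only on the lower side, and its call there is no support for a shift of the set. Its log2 fold change was -3.06 (standard error 0.69, edgeR adjusted p = 0.532; DESeq2 adjusted p = 0.024), and it shares 12.7% of its windows with Cyp4a31 and Cyp4a32.

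The other 4 genes lower at an unadjusted p under 0.05 were Hadh (-0.60, standard error 0.22), Eci2 (-0.44, standard error 0.17), Decr1 (-0.39, standard error 0.15) and Ppargc1a (-0.87, standard error 0.39). Decr1 was at 54.4, 64.6, 43.8 and 55.7 CPM with Compound-1, each below the lowest vehicle culture at 65.1 CPM. Ppargc1a was at 24.1, 12.3, 8.87 and 10.7 CPM with Compound-1, which overlapped with control. Cpt1a was at 132, 99.6, 168 and 170 CPM with Compound-1, and its log2 difference from vehicle was 0.33 (standard error 0.17, edgeR adjusted p = 0.715). The 10 enterocyte markers summed to 7250 to 9667 CPM in treated and 7731 to 14088 CPM in vehicle cultures, and 4 goblet cell markers to 1789 to 4859 and 1749 to 2168 CPM. Taken singly, 8 enterocyte markers were lower and 2 higher with Compound-1 (median log2 fold change -0.53), 5 of the 10 at an unadjusted edgeR p under 0.05. All 4 goblet markers were higher, 2 at an unadjusted edgeR p under 0.05. None of either list passed the adjusted test. The 3 tuft cell markers summed to 6.52 to 11.9 CPM in treated and 13.4 to 19.8 CPM in vehicle cultures, without overlap. Their part in these values was not tested.

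Against control, treated enteroids had 2 genes higher and 10 lower of 29 tested, where 15.7% of all genes were higher and 13.7% lower. Without control culture 1 the counts were 2 and 15, where 22.9% and 19.2% of all genes were called, with the limit given above for leaving out this culture. The 7 genes called in both MYO5B-deficient groups were called again in the same direction, from the same controls. Cpt1a had a log2 fold change of 1.12 (standard error 0.18, edgeR adjusted p = 0.0043), Decr1 -1.07 (standard error 0.17, edgeR adjusted p = 0.0041), Acat1 -1.18 (standard error 0.28, edgeR adjusted p = 0.012) and Hadh -1.09 (standard error 0.22, edgeR adjusted p = 0.0075). Echs1, Eci2, Acaa1b and Pex11a were called in this comparison alone, with edgeR adjusted p values of 0.032, 0.022, 0.032 and 0.039. These 4 calls were lost with the replicate number as a block and without several single cultures. Acads and Hadhb had 0.51 and -0.68, and the call of Acads was lost without control culture 2 or treated culture 4 (edgeR adjusted p up to 0.0633). None of these genes passed the test of treated against vehicle enteroids.

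MYO5B(G519R) and MYO5BΔIEC enteroids were compared directly to ask whether the point mutation differs from the deletion. None of the 30 genes passed in edgeR or DESeq2 and none had an unadjusted p under 0.05, while 0.00557% of all genes were called by edgeR. The difference, MYO5B(G519R) minus MYO5BΔIEC on the log2 scale, was -0.05 (standard error 0.097) for Cpt1a, -0.18 (standard error 0.11) for Hadhb, -0.05 (standard error 0.11) for Decr1, 0.08 (standard error 0.13) for Eci1 and 0.23 (standard error 0.12) for Acat1. The groups overlapped for all 30 genes. For Cyp4a10, Pdk4 and Ppargc1a, with standard errors of 0.33 to 0.65, moderate differences were not detectable.

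Other genes of the same pathways were read from fixed lists that hold none of the 30. Their counts are read against the 13.5% of all genes that were higher and 13.8% lower in MYO5BΔIEC, and the 13.1% and 13.7% in MYO5B(G519R), with no test of a list. Of 26 further mitochondrial oxidation genes, 5 were higher and 6 lower in MYO5BΔIEC, and 4 and 3 in MYO5B(G519R). Of 19 tested peroxisomal oxidation genes, 3 were higher and 3 lower in MYO5BΔIEC, and 1 and 7 in MYO5B(G519R). Of 18 tested PPARA targets, 4 were higher and 1 lower in MYO5BΔIEC, and 4 and 3 in MYO5B(G519R). Of 22 tested partners and coregulators of PPARs, 6 were higher and 1 lower in MYO5BΔIEC, and 6 and 2 in MYO5B(G519R), with medians of 0.33 and 0.31. Of 15 peroxins, 1 was higher and 5 lower in MYO5BΔIEC, and 4 and 5 in MYO5B(G519R). The 6 other ketone body genes gave 0 calls in edgeR in MYO5BΔIEC, 1 having an unadjusted p under 0.05, and 1 was higher in MYO5B(G519R).

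Among these, the genes called alike in both groups with the largest mean change, given for control, MYO5BΔIEC and MYO5B(G519R) in turn, included enzymes that act beside CPT1A. Cpt1c, a brain form of CPT1 with little enzyme activity, rose from 0.363 ± 0.199 CPM to 5.57 ± 2.20 and 3.04 ± 2.24 CPM (SD, n = 4, edgeR adjusted p = 0.0014 and 0.0054). Acacb, the acetyl-CoA carboxylase whose product malonyl-CoA inhibits CPT1, rose from 1.45 ± 0.609 CPM to 4.66 ± 2.81 and 4.22 ± 1.60 CPM (edgeR adjusted p = 0.032 and 0.020). Its MYO5BΔIEC cultures, at 1.66 to 7.45 CPM, overlapped with control, at 0.864 to 2.08 CPM. Ppard, the PPARδ receptor, rose from 35.6 ± 10.6 CPM in control to 97.3 ± 16.3 and 86.3 ± 17.6 CPM (edgeR adjusted p = 0.0021 and 0.0048). Cd36, a fatty acid transporter and PPAR target, fell from 28.1 ± 13.2 CPM to 9.48 ± 4.14 and 6.95 ± 2.00 CPM (edgeR adjusted p = 0.014 and 0.0042). For Cd36, control culture 1, at 11.6 CPM, lay below MYO5BΔIEC culture 1, at 14.3 CPM. Acox3, a peroxisomal acyl-CoA oxidase, rose (log2 fold change 1.23 and 0.92), and Hsd17b10, a mitochondrial dehydrogenase, and Pecr, a peroxisomal reductase, fell (-1.07 and -0.82, and -1.04 and -0.78).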

How the data were processed

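The authors aligned reads of poly(A)-selected RNA to GRCm38 and counted them per gene. Per the labels, the tools were STAR 2.5 and HTSeq 0.6.1. The deposited count table holds whole reads per gene, and how reads with several positions or strand were treated is not given in the sources used here. The deposited FPKM values are the authors' counts per length of gene, scaled for library size. Counts were tested with edgeR 4.0.16 in R 4.3.3, 2 groups at a time. Library sizes were scaled by TMM, a gene was kept when 2 or more of the 8 libraries held 10 or more of its reads, and p-values of the quasi-likelihood test were adjusted by Benjamini-Hochberg over all genes kept. CPM were scaled by TMM over all 16 libraries. Standard errors of edgeR fold changes are the fold change over the square root of F. The scripts were tested on simulated data. Genes past the threshold of 0.05 in MYO5BΔIEC or MYO5B(G519R) enteroids, with Ppara, Ppargc1a and Cpt1a, were described by culture, as were up to 8 genes of other lists called alike in both, of which 1 is not reported here. The members and the lists were chosen with earlier results of these data known. Per the study, the 4 cultures of a group came from 4 mice. The alternatives were DESeq2 1.42.0, its size factors, mitochondrial genes left out of library sizes, the filterByExpr rule or no filter, 1 fit over all groups, a block for the replicate number, removal of the length trend, limma 3.58.1 on log2(FPKM + 1) and log2(FPKM + 0.1), and each culture left out.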

Additional observations from a re-analysis of the deposited data

Results flagged for a closer look

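A culture was singled out where its gap to the nearest of its group was above Dixon's critical share of the group's range at the 95% level (the share is given for each). Of 120 groups of 4 cultures, 11 were, and chance gives about 1 in 20. Control culture 1 accounted for 6 of them. It was lowest for Acadm (0.879), Acaa2 (0.840), Decr1 (0.830), Etfdh (0.938) and Acaa1b (0.939), and highest for Acot2 (0.866). Its enterocyte marker sum was the lowest of the 16 cultures (3781 CPM). The part of that difference in these values was not tested. The other 5 were spread over the groups. MYO5BΔIEC culture 3 was highest for Decr1 (0.896), MYO5B(G519R) culture 3 lowest for Hadhb (0.835) and culture 4 lowest for Ppargc1a (0.875). Treated culture 2 was highest for Eci1 (0.939) and treated culture 1 highest for Acaa1b (0.945).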

How the results depend on the processing

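The number of genes past the threshold was within 1.5 times the reported count in most settings. In MYO5BΔIEC against control (7 genes) it was 11 with all 4 groups in 1 fit and 4 to 17 with single cultures left out. In MYO5B(G519R) against control (8 genes) it was 6 to 21 with single cultures left out, and the highest of both ranges was without control culture 1. In treated enteroids against control (12 genes) it was 6 to 17. In treated against vehicle enteroids (0 genes) it was 2 by DESeq2. A block for the replicate number gave counts of 6, 7, 8, 0 and 0 for MYO5BΔIEC, MYO5B(G519R) and treated enteroids against control, treated against vehicle, and MYO5B(G519R) against MYO5BΔIEC. Same-numbered cultures did not all deviate together, so the numbers were not taken as a pairing. The log2 fold change of Ppara in MYO5BΔIEC changed sign, to 0.0076 with limma on log2(FPKM + 0.1), with a range of -0.289 to 0.112 without single cultures. That of Ppargc1a in MYO5B(G519R) was -0.0514 with the length trend removed, with a range of -0.0374 to 0.264 without single cultures. Removing that trend moved the median of all genes from -0.01 to 0.09 in MYO5BΔIEC, where Eci1 and Etfa lost their calls, Acadl (0.45) and Echs1 (-0.59) gained one, and the count stayed at 7 (3 higher, 4 lower). Depth limits Cyp4a10 and Pdk4, which had few reads.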
